A study of Bos taurus with 16 samples.

Results

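The interaction of luteinising hormone (LH) and bone morphogenetic protein 6 (BMP6) was taken for every probe set as the difference LH+BMP6 minus LH, less the difference BMP6 minus control. All 16 of 16 arrays enter it, and it was computed for the 24016 probe sets that are not Affymetrix controls. The RNA came from bovine theca interna cells, the androgen-producing layer of the ovarian follicle wall, in serum-free primary culture for 6 days. Each culture pooled the cells of about 50 follicles of 4 to 6 mm from slaughterhouse ovaries, so no array stands for a known animal. The 4 groups were control with neither factor, LH at 160 pg/ml, BMP6 at 10 ng/ml, and LH+BMP6 with both at the same doses, present from day 3 to day 6. Every group held 4 arrays, and the labels describe 4 experiments on separate ovary batches. A single dose of each factor and a single time were used.

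LH binds its receptor LHCGR on theca cells, raises cyclic AMP and supports the uptake, synthesis and conversion of cholesterol into androgens. BMP6 signals through serine/threonine kinase receptors and SMAD proteins, whose usual targets include the ID genes, and the BMP family is known to restrain androgen production by theca cells. With both factors in a factorial layout, each gene has an LH response without and with BMP6 and a BMP6 response without and with LH. The interaction is the difference between either pair. A value of 0 on the log2 scale means that the effects of both factors add up in log2 signal. For a gene that LH raises, a negative value means a smaller LH difference when BMP6 is present.

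Values are log2 signals, and differences are given in log2 units ± SE with n = 4 arrays per group. Theca markers (INSL3, CYP17A1, CYP11A1, STAR, HSD3B1, LHCGR and NR5A1, 7 of 7 measured) averaged 9.78 to 11.42 per array without BMP6 and 7.19 to 7.97 with it. The highest value was that of LH replicate 1. Markers of granulosa cells averaged 4.28 to 4.71 per array over all groups, and those of red blood cells 4.18 to 4.42, near the lower quartile of all signals (4.31 to 4.43). FSHR, which defines granulosa cells, read 3.42 to 3.57 as a group mean. The other granulosa markers differed: NR5A2 and AMH read 3.44 to 4.32 and CYP19A1 and FOXL2 4.49 to 4.82. HSD17B1 read 5.47 to 6.33, and CDH2 4.58 to 4.67 without BMP6 and 6.34 to 6.35 with it. Markers of endothelial cells, leukocytes, and pericytes and fibroblasts were present, at 5.46 to 6.21, 6.14 to 7.07 and 8.60 to 9.21. In such mixed cultures, fewer cells of a type and less RNA per cell cannot be told apart. In 3 arrays, control replicates 1 and 3 and LH replicate 1, the hybridisation controls averaged 8.944 to 9.009, against 10.15 to 10.44 in the other 13. All 3 lie in groups without BMP6. For some results, values without them, without LH replicate 1 or without all arrays numbered 1 are given. Not all values given alone are stable to these arrays. Leukocyte markers had a median interaction of 0.20 in 15 measured genes, which was 0.02 without LH replicate 1 and -0.05 without all arrays numbered 1.

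No probe set passed the test for the interaction. With limma and Benjamini-Hochberg adjustment over all probe sets, 0 of 24016 were called at an adjusted p under 0.05 (0%), and the smallest unadjusted p was 0.000292, with an adjusted p of 1. At an unadjusted p under 0.05 there were 773 (3.22%), of which 310 had positive values (1.29%) and 463 negative values (1.93%). Of the 9155 genes with 1 symbol, 264 did so (2.88%), 124 with positive values (1.35%) and 140 with negative values (1.53%). The median interaction of all probe sets was -0.00657, and the middle 95% lay between -0.313 and 0.313. The median SE was 0.144. For 23442 probe sets, or 97.6%, the 95% interval lay within a 2-fold departure from additivity in either direction. These intervals are not adjusted for the number of probe sets, and for the other probe sets they reach beyond 2-fold. An absolute interaction of at least 1 was estimated for 17 probe sets, 13 negative and 4 positive. Of these, 13 had an unadjusted p under 0.05, and 15 also differed at least 2-fold between LH and control. The 17 were chosen by their interaction, which contains LH minus control, so both counts follow in part from the choice.

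The responses to BMP6 ran in the same directions without and with LH. BMP6 against control called 4340 probe sets (18.1%) and LH+BMP6 against LH called 4879 (20.3%). Both comparisons called 3260, which is 75.1% of the first list and 66.8% of the second, and all 3260 had the same direction. Across the 24016 probe sets, the BMP6 difference without LH and with LH, which share no arrays, correlated at r = 0.899, a description across probe sets of the same arrays. For LH the same correlation was 0.0785. The SD over probe sets of the LH difference was 0.139 without BMP6 and 0.0959 with it. LH called 3 probe sets without BMP6 and 0 with it. All 3 arrays of low hybridisation controls lie in the control and LH groups. Deviations of same-number arrays from their group means correlated at a mean r of 0.16 between control and LH and 0.38 between BMP6 and LH+BMP6. The part of variation between arrays in these LH values was not tested.

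**Figure D1:**
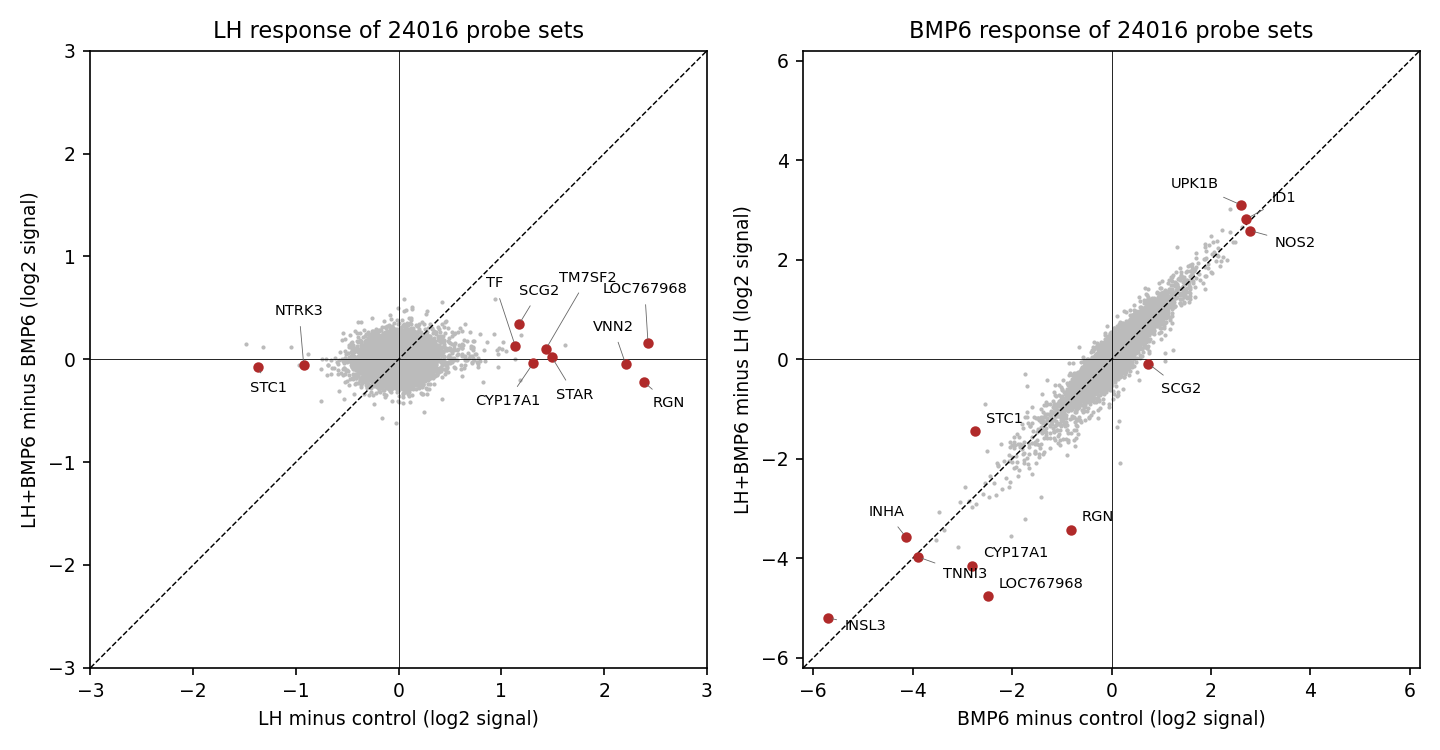
Each grey point is 1 of 24016 probe sets. The left panel plots LH minus control (horizontal) against LH+BMP6 minus BMP6 (vertical), and the right panel BMP6 minus control against LH+BMP6 minus LH, all in log2 signal. Points on the dashed line have no interaction. BMP6 responses lie along the line (r = 0.899), while probe sets with the largest LH differences without BMP6 lie near 0 on the vertical axis. Named genes are red.

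LH responses were few and were seen without BMP6. LH against control called 3 probe sets (0.0125%), SCG2, TF and 1 probe set without a gene name, all higher with LH, while 1291 had an unadjusted p under 0.05 (5.38%). The count of 3 became 1 without control replicate 1, control replicate 2, control replicate 3, LH replicate 2 or LH+BMP6 replicate 4, and 6 without LH replicate 3. LH+BMP6 against BMP6 called 0 (0%), with 471 at an unadjusted p under 0.05 (1.96%). A call in one comparison and none in the other does not show that they differ. The test of that difference is the interaction, which called none. At least 2-fold differences between LH and control were estimated for 20 probe sets, 16 higher and 4 lower, and 14 of the 20 had groups that did not overlap. Over all probe sets, 1.92% were higher and 1.2% lower with no overlap in this comparison. The 20 were chosen by their difference in these same arrays, so this lack of overlap follows in part from the choice. For the same 20, the LH difference in the presence of BMP6 ran from -0.38 to 0.34, and none had groups that did not overlap (0.924% higher and 0.75% lower over all probe sets). Of the 16 higher ones 11 stayed positive with BMP6, and of the 4 lower ones 1 stayed negative. Those LH+BMP6 and BMP6 arrays played no part in choosing the 20. Smaller differences in them follow in part from choosing the 20 by large differences in other arrays. With BMP6 present, 0 probe sets differed at least 2-fold with LH, and the largest difference was 0.61. The count of 20 rests partly on LH replicate 1: it was 11 without that array, 14 without LH replicate 2, 33 without LH replicate 3 and 32 without LH replicate 4. Dropping the 3 arrays of low hybridisation controls left 9. Keeping them with a term for low hybridisation controls in the fit gave 28, or 25 with a block for replicate number as well. The part of those controls in the result was not tested beyond these counts.

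SCG2 encodes secretogranin II, a granin of secretory granules and the precursor of the peptide secretoneurin. It read 10.53, 10.77, 10.51 and 10.91 in control and 12.03, 11.71, 11.80 and 11.87 with LH. With BMP6 it read 11.44, 10.96, 11.60 and 11.69, and with LH+BMP6 11.89, 11.59, 11.62 and 11.96. Every LH array lay above every control array, and the arrays of BMP6 and LH+BMP6 overlapped. SCG2 rose by 1.17 ± 0.14 with LH alone (adjusted p = 0.00396) and by 0.74 with BMP6 alone (adjusted p = 0.00117). The LH difference in the presence of BMP6 was 0.34 ± 0.14 (unadjusted p = 0.0247, not called). The interaction was -0.83 ± 0.20, with a 95% interval of -1.24 to -0.42 and an unadjusted p of 0.000545, and did not pass. On the linear scale the mean signal averaged 1651 (control), 3707 (LH), 2794 (BMP6) and 3498 (LH+BMP6). The arrays of LH+BMP6 and LH overlapped, and their log2 difference was -0.09 ± 0.14 (adjusted p = 0.726, not called). SCG2 was also the 1 probe set called for the average effect of LH over both backgrounds (0.00416%; 951 at an unadjusted p under 0.05, 3.96%), a contrast that is independent of the interaction. That average was 0.76 ± 0.10 (adjusted p = 0.0138). The interaction of SCG2 kept its sign in every alternative run (-1.0 to -0.61), with adjusted p values from 0.221 to 1.

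TF encodes transferrin, the iron carrier of blood and follicular fluid. It read 6.54, 6.88, 6.86 and 7.12 in control, 8.39, 7.74, 7.65 and 8.16 with LH, 5.71, 6.02, 6.43 and 6.27 with BMP6, and 6.29, 6.39, 6.07 and 6.22 with LH+BMP6. The LH arrays stood above all others, and the arrays of both BMP6 groups overlapped. TF rose by 1.13 ± 0.17 with LH (adjusted p = 0.0351), and fell by 0.74 with BMP6 alone (adjusted p = 0.0057) and by 1.74 when BMP6 was added to LH (adjusted p = 3.4e-06). The LH difference with BMP6 was 0.13 ± 0.17. The interaction was -1.0 ± 0.24 (95% interval -1.51 to -0.49, unadjusted p = 0.000694), and -0.72 without the arrays of low hybridisation controls. Without those 3 arrays, LH against control called 0 probe sets, SCG2 and TF included, as it did without all arrays numbered 1, 3 or 4.

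The largest negative interactions were those of RGN, LOC767968 and VNN2, with wide intervals. RGN encodes regucalcin, a calcium-binding protein. Its LH arrays read 10.40, 8.90, 6.70 and 6.83, against 5.57 to 6.02 in control, 4.75 to 5.22 with BMP6 and 4.43 to 5.08 with LH+BMP6. All 4 LH arrays were above all control arrays, replicates 1 and 2 by far the most, and the BMP6 and LH+BMP6 arrays overlapped. Both groups with BMP6 lay not far above the lower quartile of the arrays, where a further fall may not be measurable. The interaction of RGN was -2.61 ± 0.77 (95% interval -4.23 to -0.99, unadjusted p = 0.00348) and became -1.88 without LH replicate 1. A second, dimmer probe set of RGN (mean signal 3.56) gave -0.10 ± 0.13.

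LOC767968 read 5.39, 5.62, 6.74 and 6.89 in control and 10.20, 8.69, 7.61 and 7.85 with LH. It read 3.79, 3.56, 3.53 and 3.83 with BMP6 and 3.69, 3.88, 3.58 and 4.19 with LH+BMP6. The LH arrays were all above control, while both BMP6 groups overlapped below the lower quartile of the arrays, where a smaller signal may not be measurable. Its interaction was -2.27 ± 0.61 (unadjusted p = 0.00161) and -1.73 without LH replicate 1. BMP6 lowered it by -2.48 in the absence of LH (adjusted p = 0.000627) and by -4.75 in its presence (adjusted p = 1.46e-06).

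VNN2, of the vanin family of pantetheine hydrolases, read 7.71, 8.28, 5.38 and 5.67 with LH, against 4.18 to 4.86 in control, 4.39 to 5.44 with BMP6 and 4.12 to 5.19 with LH+BMP6. Here too the LH arrays lay above control and the groups with BMP6 overlapped. Like RGN, LOC767968 and CITED1, VNN2 was named for a small interaction p in these same arrays. That choice favours LH arrays apart from control and overlap with BMP6, so the pattern follows in part from it. Outside the LH group VNN2 lay near the lower quartile of the arrays, where a smaller signal may not be measurable. The interaction of VNN2 was -2.26 ± 0.69 (unadjusted p = 0.00428) and became -1.75 without LH replicate 2. CITED1, a coactivator that binds CBP and p300, showed the pattern with less spread. It read 5.40 to 5.89 in control, 6.24 to 6.80 with LH, 4.36 to 5.23 with BMP6 and 4.80 to 5.00 with LH+BMP6. The LH difference of CITED1 was 0.84 ± 0.17 without BMP6 and -0.02 ± 0.17 with it, and the interaction -0.86 ± 0.25 (unadjusted p = 0.0028). BMP6 lowered CITED1 by -0.75 alone (adjusted p = 0.00559) and by -1.61 on top of LH (adjusted p = 8.16e-06).

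Among the 10 genes with the smallest p on the negative side, FEZ2, HP (haptoglobin), ALG11 (a mannosyltransferase of N-glycan assembly) and TMEM35A were smaller in size, from -0.53 ± 0.16 for HP to -0.35 ± 0.11 for ALG11. FEZ2 and HP lay near or below the lower quartile of the arrays in every group, with group means of 3.58 to 3.86 and 4.08 to 4.49. The probe set with the smallest p of all has no symbol in the platform annotation and was picked after its values were seen. It read 8.01, 7.34, 6.70 and 6.64 with LH and 5.47 to 6.25 in the 12 other arrays. Its LH arrays lay above all others. Its interaction was -1.48 ± 0.33 (95% interval -2.17 to -0.79).

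Positive interactions of size came from genes that were lower with LH when BMP6 was absent. The interaction contains LH minus control, so choosing genes by it favours such values. STC1 encodes stanniocalcin 1, a secreted glycoprotein made by theca cells. It read 11.86, 11.81, 11.14 and 11.05 in control, 9.79, 9.10, 10.63 and 10.86 with LH, 8.95, 8.77, 8.43 and 8.74 with BMP6, and 8.94, 8.57, 8.35 and 8.75 with LH+BMP6. All LH arrays lay below control and above both groups with BMP6, which overlapped. STC1 was lower by -1.37 ± 0.29 with LH alone (unadjusted p = 0.000213, adjusted p = 0.425, not called) and by -0.07 ± 0.29 with LH on top of BMP6. BMP6 lowered it by -2.74 without LH (adjusted p = 8.11e-06) and by -1.45 with LH (adjusted p = 0.00191). The interaction was 1.30 ± 0.41 (95% interval 0.42 to 2.17, unadjusted p = 0.00603). On the linear scale STC1 averaged 2922 (control), 1221 (LH), 426.2 (BMP6) and 406.5 (LH+BMP6).

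NTRK3, the receptor of neurotrophin 3, had the same order of groups. It read 6.07 to 6.69 in control, 5.23 to 5.76 with LH, 4.90 to 5.37 with BMP6 and 4.59 to 5.43 with LH+BMP6. Its LH difference was -0.92 ± 0.18 without BMP6 and -0.06 ± 0.18 with it, and its interaction 0.87 ± 0.25 (unadjusted p = 0.00335). BMP6 lowered NTRK3 by -1.29 without LH (adjusted p = 0.000102), while the difference on top of LH was -0.42 (adjusted p = 0.113). The LH and BMP6 arrays of NTRK3 overlapped, while those of LH and control did not. Another probe set without a symbol, chosen after its values were seen, read 8.24 to 8.92 in control, 6.22 to 7.65 with LH, 5.64 to 6.47 with BMP6 and 5.97 to 6.52 with LH+BMP6. Its interaction was 1.63 ± 0.37 (unadjusted p = 0.000365), the largest positive one.

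In other genes on the positive side the opposed signs came from small differences. STEAP3, a ferrireductase of the transferrin cycle, read 6.43 to 7.05 with LH against 7.20 to 7.27 in control, and 7.65 to 8.07 with LH+BMP6 against 7.50 to 7.71 with BMP6. The LH arrays were all below control, and the arrays with BMP6 overlapped. BMP6 raised STEAP3 by 0.37 without LH (adjusted p = 0.035) and by 0.99 with LH (adjusted p = 1.95e-05), and the interaction was 0.61 ± 0.17 (unadjusted p = 0.0018). CSDC2, an RNA-binding cold-shock protein, had LH differences of -0.56 ± 0.15 without and 0.19 ± 0.15 with BMP6 and an interaction of 0.74 ± 0.21. HS6ST1, a heparan sulfate sulfotransferase, had the smallest value of the 10, 0.33 ± 0.10, with LH differences of -0.17 ± 0.07 and 0.16 ± 0.07. ZNF394, IGSF5, FRMD8, EHBP1L1, ZFP36L2 and TMEM39B had interactions of 0.39 to 0.56, and IGSF5 was dim, with group means of 2.93 to 3.31. The interaction of ZFP36L2 was 0.45, and 0.25 without all arrays numbered 1. For TCN2, the vitamin B12 carrier transcobalamin 2, 1 probe set gave 1.17 ± 0.28 (unadjusted p = 0.000577), while its 4 other probe sets gave -0.10 to 0.15. TCN2 was named after its values were seen, and its probe sets disagree.

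**Figure D2:**
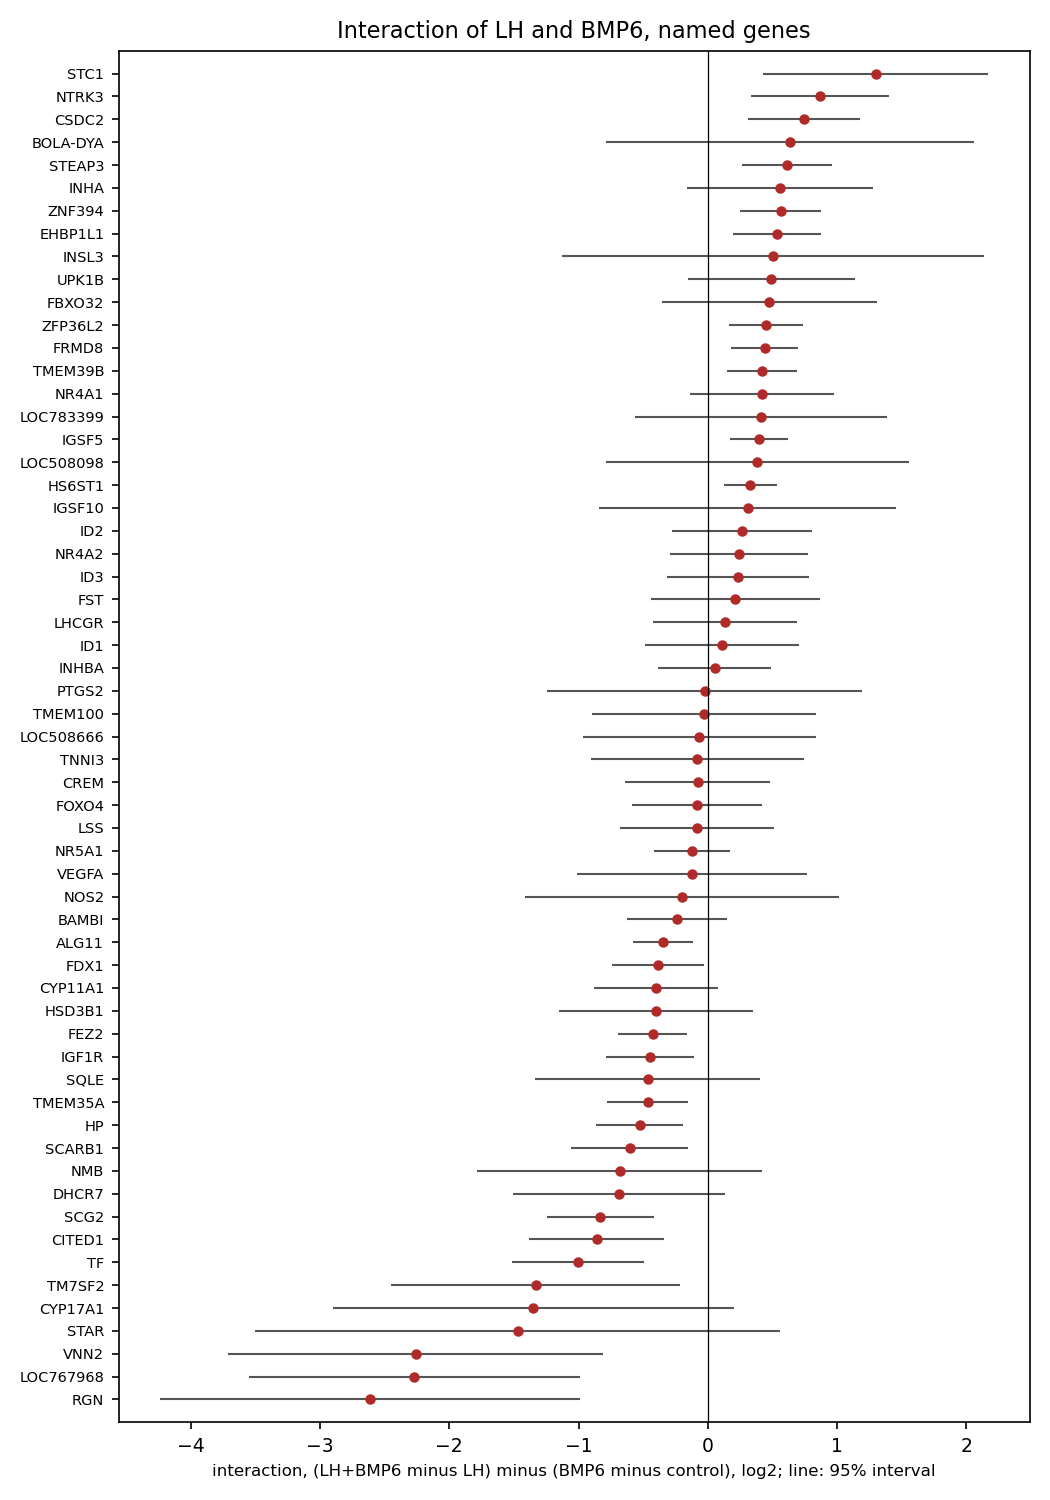
Interaction of LH and BMP6 in log2 units (horizontal axis) for named genes, sorted by size, as points with their 95% intervals as lines. Negative values at the bottom include RGN at -2.61, LOC767968 at -2.27 and VNN2 at -2.26, and STC1 at 1.30 is at the top. The intervals are not adjusted for the number of probe sets, and none of these genes was called.

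The steroidogenic pathway carries cholesterol to androgens. Of 20 measured genes, 0 were called for the interaction, 2 had an unadjusted p under 0.05, both negative (1.53% of all genes), and the median was -0.13, beside 0.01 for the 9155 genes on the array. The LH difference was positive in 17 of 20 genes without BMP6 and in 15 with it, against 4548 and 4898 of 9155 genes. Its median was 0.20 without and 0.04 with BMP6. The median interaction was -0.08 without LH replicate 1.

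STAR moves cholesterol into mitochondria. It read 8.52, 8.36, 8.21 and 8.72 in control, 11.47, 9.49, 9.34 and 9.49 with LH, 5.73, 5.24, 8.18 and 7.72 with BMP6, and 5.03, 6.10, 7.81 and 8.01 with LH+BMP6. The LH arrays were all above control, LH replicate 1 far above the rest, and in both groups with BMP6 replicates 1 and 2 were low and 3 and 4 high. The LH difference was 1.49 ± 0.68 without BMP6 and 0.02 ± 0.68 with it. The interaction, -1.47 ± 0.96, had an interval from -3.50 to 0.56 that includes 0 (unadjusted p = 0.144), and was -0.96 without LH replicate 1 and -0.90 without LH+BMP6 replicate 1. Adding BMP6 to LH lowered STAR by -3.21 (adjusted p = 0.00264), and BMP6 alone differed from control by -1.74 (adjusted p = 0.0901, not called).

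CYP17A1, the enzyme that commits steroids to androgens, read 8.56, 7.03, 6.59 and 7.35 in control and 10.85, 7.55, 8.30 and 8.05 with LH. It read 4.34, 4.84, 4.89 and 4.26 with BMP6 and 4.46, 4.61, 4.78 and 4.32 with LH+BMP6. Control and LH overlapped, and both groups with BMP6 lay close to the lower quartile of the arrays, so that a further fall there may not be measurable. The LH difference was 1.31 ± 0.52 without BMP6 and -0.04 ± 0.52 with it, and the interaction was -1.35 ± 0.74 (95% interval -2.90 to 0.21, unadjusted p = 0.0846). Without LH replicate 1 the interaction of CYP17A1 was -0.63. BMP6 lowered CYP17A1 by -2.80 alone (adjusted p = 0.00115) and by -4.15 on top of LH (adjusted p = 3.37e-05).

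CYP11A1, which makes pregnenolone from cholesterol, read 11.17 to 11.32 in control, 11.36 to 12.39 with LH, 8.81 to 9.36 with BMP6 and 9.03 to 9.27 with LH+BMP6. LH arrays were above control without overlap, and the groups with BMP6 overlapped. The interaction was -0.40 ± 0.23 (unadjusted p = 0.0965), -0.19 without LH replicate 1 and -0.06 without all arrays numbered 1. HSD3B1, which makes progesterone from pregnenolone, had the same estimate with a wider error, -0.40 ± 0.36, and -0.15 without all arrays numbered 1.

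SCARB1, the receptor that takes up cholesterol from HDL, read 10.48, 10.65, 10.77 and 10.84 in control, 12.05, 11.32, 11.11 and 11.17 with LH, 9.87, 10.06, 10.07 and 9.84 with BMP6, and 10.03, 10.25, 10.00 and 10.05 with LH+BMP6. The LH arrays were above control without overlap and those of both BMP6 groups overlapped. Its LH difference was 0.73 ± 0.15 without and 0.12 ± 0.15 with BMP6, and the interaction -0.61 ± 0.21 (95% interval -1.06 to -0.15, unadjusted p = 0.0119) was -0.39 without LH replicate 1. FDX1, the ferredoxin that passes electrons to mitochondrial P450 enzymes, had LH differences of 0.42 ± 0.12 and 0.03 ± 0.12 and an interaction of -0.39 ± 0.17 (unadjusted p = 0.0362), or -0.22 without LH replicate 1. NR5A1, the transcription factor SF-1, differed little with LH (0.20 ± 0.10 without and 0.08 ± 0.10 with BMP6), and its interaction of -0.12 ± 0.14 had an interval of -0.42 to 0.17. BMP6 lowered NR5A1 by -1.55 without LH (adjusted p = 2.91e-08) and by -1.67 with LH (adjusted p = 2.64e-08).

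**Figure D3:**
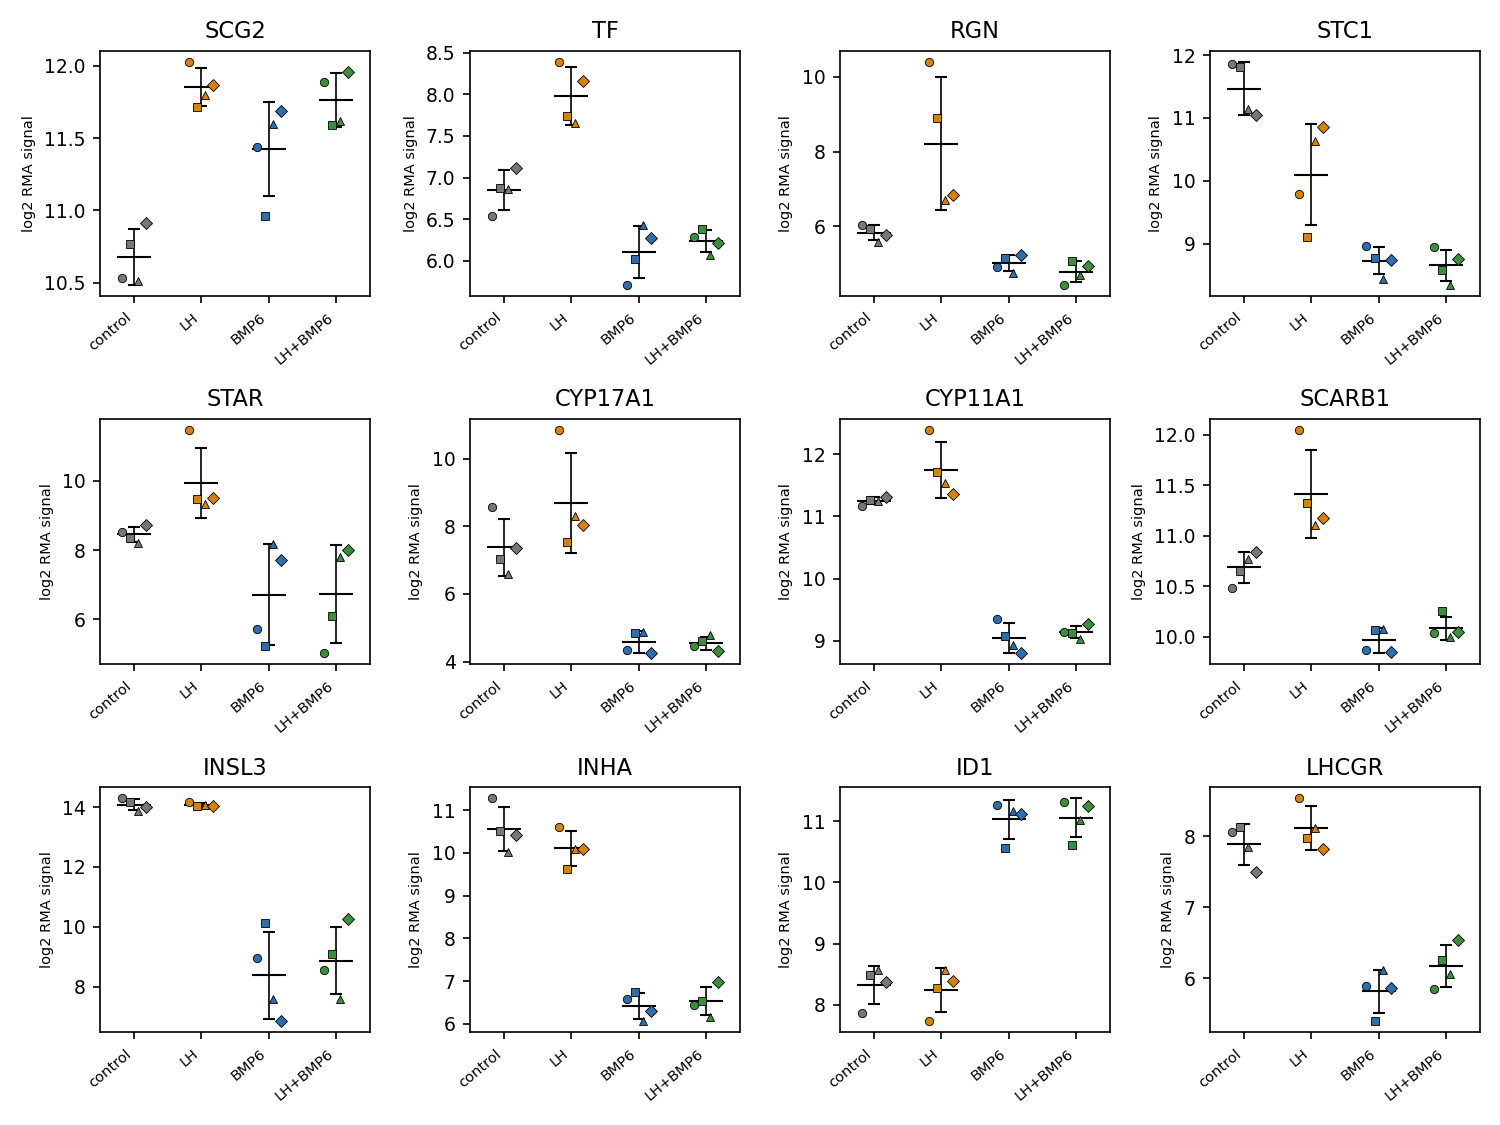
Log2 signals of 12 genes (vertical axis, its own range in each panel) in the 4 groups, with replicates 1 to 4 drawn as circle, square, triangle and diamond, and the mean ± SD as bars. In SCG2, TF, RGN, STAR, CYP11A1 and SCARB1 the LH arrays lie above control without overlap, and in none of the 12 panels are BMP6 and LH+BMP6 arrays free of overlap. LH replicate 1 is the highest LH array in SCG2, TF, RGN, STAR, CYP17A1, CYP11A1, SCARB1, INSL3, INHA and LHCGR, but not STC1 or ID1.

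Theca cells also make cholesterol themselves, under control of SREBF2. Of 19 measured genes of cholesterol synthesis and uptake, 0 were called for the interaction and 1 had an unadjusted p under 0.05, TM7SF2. Its value was negative, as in 1.53% of all genes at that p. Still, 17 of 19 estimates were negative, against 4359 of 9155 genes. The median of the 19 was -0.47, the lowest of all lists, against 0.01 for all genes. The median LH difference was 0.58 without BMP6 and 0.09 with it. The LH difference was above 0 in 18 and in 16 of the 19, against 4548 and 4898 of 9155 genes. BMP6 lowered 13 of the 19 without LH (15.5% of all genes were called lower) and 17 of them in the presence of LH (again 15.5%). Its median difference was -0.80 without and -1.23 with LH. Genes of a shared pathway in the same arrays are not independent measurements.

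These values rest to a large part on the first LH array. The median interaction of the cholesterol list was -0.22 when LH replicate 1 was dropped, and -0.20 when the 3 arrays of low hybridisation controls or all arrays numbered 1 were dropped. Dropping LH replicate 3 or LH replicate 4 gave -0.64. TM7SF2, the sterol C14 reductase, shows the spread. It read 7.24, 7.57, 6.92 and 7.38 in control, 10.15, 9.26, 7.71 and 7.73 with LH, 5.73, 6.07, 5.84 and 5.77 with BMP6, and 5.97, 6.14, 5.88 and 5.82 with LH+BMP6. All LH arrays were above control, replicates 1 and 2 the most, and the groups with BMP6 overlapped. The interaction of TM7SF2 was -1.33 ± 0.53 (95% interval -2.45 to -0.21, unadjusted p = 0.0225), -0.85 without LH replicate 1 and -0.66 without the 3 arrays of low hybridisation controls. Whether those controls bear on it was not tested beyond these values.

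Further along the pathway, CYP51A1, which demethylates lanosterol, had an interaction of -0.79 ± 0.39, FDFT1, the squalene synthase, -0.70 ± 0.35, and HMGCS1, an early enzyme of the mevalonate route, -0.64 ± 0.40. DHCR7, the last step to cholesterol, read 8.77 to 9.20 in control, 9.16 to 10.83 with LH, 7.61 to 8.41 with BMP6 and 7.84 to 8.41 with LH+BMP6, and its interaction was -0.69 ± 0.39 (unadjusted p = 0.0958), or -0.34 without LH replicate 1. SQLE, the squalene epoxidase, had -0.47 ± 0.41, or -0.14 without all arrays numbered 1. SREBF2 itself had -0.32 ± 0.21. LSS, the lanosterol synthase, differed from these, with LH differences of 0.45 ± 0.20 without and 0.36 ± 0.20 with BMP6 and an interaction of -0.09 ± 0.28. NPC1, NPC2 and SCAP lay between -0.08 and 0.08.

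**Figure D4:**
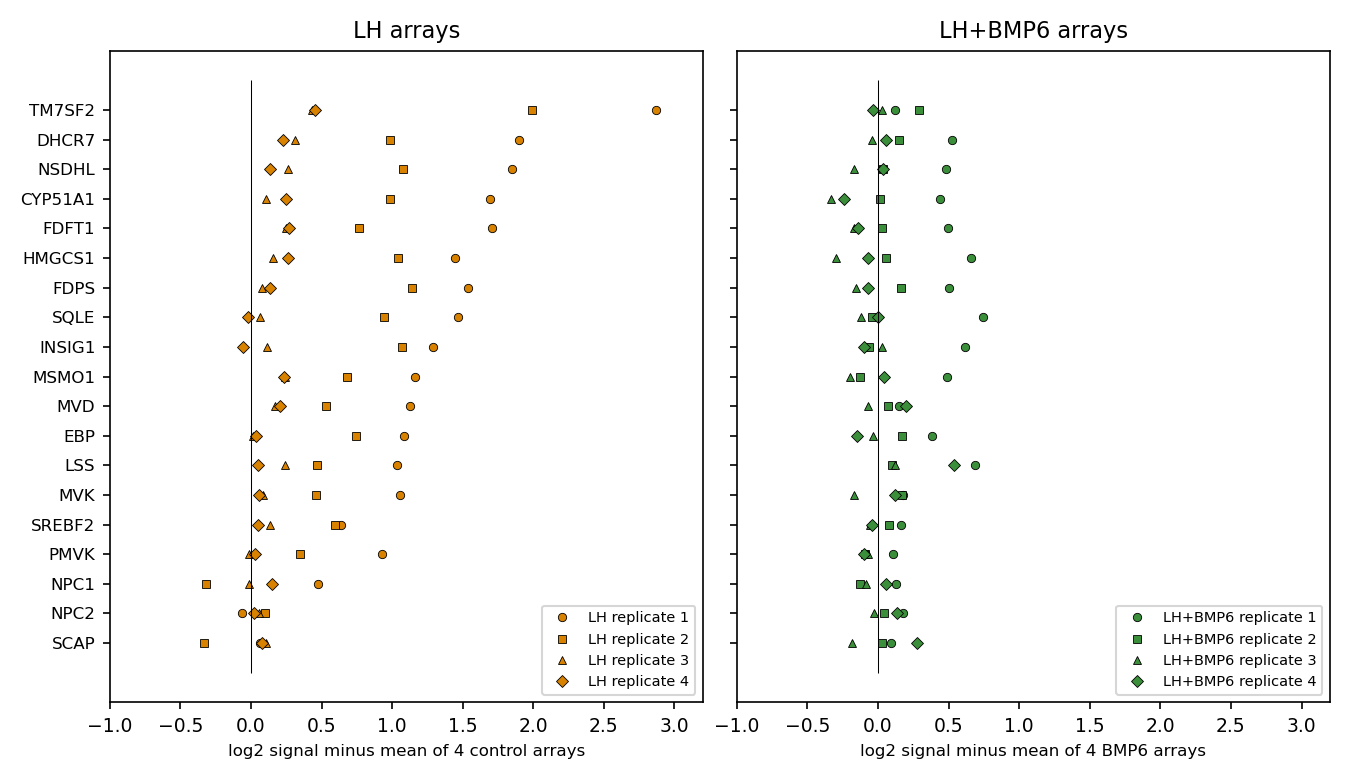
Log2 signals of 19 genes of cholesterol synthesis and uptake in the 4 LH arrays relative to the mean of the control arrays (left) and in the 4 LH+BMP6 arrays relative to the mean of the BMP6 arrays (right). Circles, squares, triangles and diamonds are replicates 1 to 4. In the left panel LH replicates 1 and 2 lie well to the right of replicates 3 and 4 for most genes. In the right panel most points lie within 0.5 of 0, with LH+BMP6 replicate 1 the farthest to the right for most genes. The reference there is a group mean, not the array of the same number. BMP6 replicate 1 was also the highest BMP6 array in SQLE, DHCR7 and LSS, but not in TM7SF2.

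Fatty acid metabolism, 27 measured genes, had a median interaction of -0.14, with 0 called and 2 negative ones at an unadjusted p under 0.05 (1.53% of all genes). The LH difference was above 0 in 23 genes without BMP6 and in 11 with it, against 4548 and 4898 of 9155 genes. ACLY, which makes cytosolic acetyl-CoA, read 10.71 to 10.97 in control, 11.01 to 12.35 with LH, 10.32 to 10.84 with BMP6 and 10.38 to 10.79 with LH+BMP6. Its LH arrays lay above control, and its interaction of -0.75 ± 0.29 (unadjusted p = 0.0198) was -0.48 without LH replicate 1. BMP6 lowered ACLY only on top of LH by the test (-0.99, adjusted p = 0.0025, against -0.23 and adjusted p = 0.517 without LH), a difference that is the interaction and did not pass. ELOVL5, a fatty acid elongase, had -0.34 ± 0.14 (unadjusted p = 0.0253; -0.21 without the 3 arrays of low hybridisation controls), and SCD, the stearoyl-CoA desaturase, -0.87 ± 0.42. The median interaction of the list was -0.06 without LH replicate 1.

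INSL3, the peptide hormone of theca cells, had the largest average BMP6 response of the named genes and no call for LH. It read 14.29, 14.18, 13.88 and 13.99 in control, 14.18, 14.04, 14.06 and 14.02 with LH, 8.96, 10.12, 7.60 and 6.85 with BMP6, and 8.55, 9.09, 7.59 and 10.28 with LH+BMP6. The groups without BMP6 overlapped at the top of the signal range, where a further rise may not be measurable, and those with BMP6 overlapped over a wide range. Its interaction of 0.50 ± 0.78 had an interval of -1.13 to 2.14, which does not exclude a 2-fold interaction in either direction. BMP6 lowered INSL3 by -5.70 without LH (adjusted p = 2.69e-06) and by -5.20 with LH (adjusted p = 6.31e-06).

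INHA, the inhibin alpha subunit, read 10.03 to 11.28 in control, 9.63 to 10.61 with LH, 6.06 to 6.74 with BMP6 and 6.17 to 6.97 with LH+BMP6, with overlap inside each pair. BMP6 lowered it by -4.13 without LH (adjusted p = 2.28e-08) and by -3.58 with LH (adjusted p = 7.15e-08), and the interaction was 0.56 ± 0.34 (95% interval -0.16 to 1.28). The interaction of INHA was 0.32 without control replicate 1 and 0.63 without the 3 arrays of low hybridisation controls. INHBA, the activin beta A subunit, and FST, the activin-binding follistatin, had 0.05 ± 0.21 and 0.21 ± 0.31. LHCGR, the receptor of LH, read 7.50 to 8.13 in control, 7.81 to 8.53 with LH, 5.40 to 6.12 with BMP6 and 5.85 to 6.54 with LH+BMP6. It was thus lower in both groups with BMP6, by -2.06 without LH (adjusted p = 1.33e-06) and by -1.93 with LH (adjusted p = 2.55e-06), and its interaction was 0.13 ± 0.26 (95% interval -0.42 to 0.69). In the list of 15 theca hormones and receptors the median interaction was 0.02. IGF1R, the IGF1 receptor, had the 1 unadjusted p under 0.05 in it, with -0.45 ± 0.16 (unadjusted p = 0.0134 by limma). Of all genes, 1.53% had a negative interaction at that threshold. Its means were 5.02 in control, 5.28 in LH, 5.35 in BMP6 and 5.16 in LH+BMP6.

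BMP-SMAD targets rose with BMP6 both without and with LH. Of 7 measured, 5 rose in both comparisons (9.31% and 11.7% of all genes were called higher), the median difference was 1.58 without and 1.66 with LH, and the median interaction 0.02. ID1, an inhibitor of helix-loop-helix factors, read 7.87, 8.48, 8.57 and 8.37 in control, 7.73, 8.27, 8.56 and 8.38 with LH, 11.27, 10.57, 11.18 and 11.12 with BMP6, and 11.32, 10.62, 11.03 and 11.26 with LH+BMP6. All arrays with BMP6 were above all arrays without it, and arrays without and with LH overlapped in both pairs. Its interaction was 0.11 ± 0.28 (95% interval -0.49 to 0.71). ID2 and ID3 had 0.26 ± 0.26 and 0.23 ± 0.26. BAMBI, a decoy receptor of the BMP family, had -0.24 ± 0.18, and TMEM100, a target of BMP signalling in endothelium, -0.03 ± 0.41. Among 19 ligands, receptors and SMADs of the BMP and activin family, 0 had an unadjusted p under 0.05, with a median of -0.03.

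The average effect of BMP6 over both LH states, which is independent of the interaction, called 7534 probe sets (31.4%). Of these, 569 moved at least 2-fold, 304 up and 265 down, and all 569 had the same direction without and with LH. Opposite directions around so large an average would need a still larger interaction. The shared direction of the 569 thus follows in large part from choosing them by their average. The median size was 1.27 without and 1.33 with LH, and it was larger with LH in 355. An unadjusted interaction p under 0.05 was found in 27 of the 569 (4.75%, against 3.22% of all probe sets). The interval lay within a 2-fold departure for 379. The median interaction was 0.109 in those that rose and -0.0751 in those that fell.

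Genes with the largest average BMP6 effects were next taken one by one. UPK1B, a uroplakin, read 5.06 to 5.49 in control, 4.53 to 5.07 with LH, 7.49 to 8.50 with BMP6 and 7.36 to 8.50 with LH+BMP6, and its interaction was 0.49 ± 0.31, or 0.28 without LH+BMP6 replicate 1. FOXO4, a forkhead factor, read 5.69 to 6.10 in control, 6.16 to 6.73 with LH, 8.07 to 8.62 with BMP6 and 8.39 to 9.09 with LH+BMP6. It differed by 0.46 ± 0.17 with LH alone and by 0.37 ± 0.17 with LH on top of BMP6, neither of them called, with an interaction of -0.08 ± 0.24. FOXO4 thus had nearly the same LH difference in both backgrounds. FBXO32, a ubiquitin ligase subunit, LOC508098, BOLA-DYA, a class II histocompatibility gene, and IGSF10 had interactions of 0.31 to 0.63, each with an interval that includes 0.

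Among the falls, TNNI3, a troponin I, read 10.05 to 11.18 in control, 9.57 to 11.17 with LH, 6.51 to 6.82 with BMP6 and 6.23 to 7.0 with LH+BMP6. BMP6 lowered it by -3.89 without LH (adjusted p = 1.02e-07) and by -3.97 with LH (adjusted p = 8.87e-08), and the interaction was -0.08 ± 0.39. LOC508666 had -0.07 ± 0.43 and LOC783399 0.41 ± 0.46. NMB, the peptide neuromedin B, had -0.68 ± 0.52 with control arrays from 9.71 to 12.18, and its interaction was -0.27 without control replicate 3 and -1.09 without control replicate 1, both of them arrays of low hybridisation controls.

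Genes that respond to cyclic AMP, the second messenger of LH, did not move as a list with LH at this time. Of 17 measured, the median LH difference was 0.02 without and 0.03 with BMP6, and the median interaction 0.02. SCG2 had the 1 unadjusted p under 0.05, with a negative interaction (1.53% of all genes). NR4A1, an orphan nuclear receptor, read 6.08 to 6.46 in control, 6.00 to 6.54 with LH, 7.09 to 7.75 with BMP6 and 7.36 to 8.43 with LH+BMP6. Its interaction was 0.42 ± 0.26 (95% interval -0.14 to 0.98), or 0.23 without LH+BMP6 replicate 2. NR4A2 and CREM had 0.24 ± 0.25 and -0.08 ± 0.27. BMP6 raised 7 and lowered 1 of the 17 without LH, and raised 6 and lowered 1 with it, beside 9.31% and 11.7% of all genes higher and 15.5% lower in either state.

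In the list of chemokines and inflammatory genes, 27 measured, BMP6 raised 16 without LH and 19 with LH, and lowered 0 and 1 (9.31% and 11.7% of all genes were called higher and 15.5% lower in either state). The median difference was 0.72 without and 0.85 with LH, and the median interaction 0.06 with 0 unadjusted p values under 0.05. Leukocyte markers averaged 6.14 to 6.64 per array without and 6.59 to 7.07 with BMP6. Of these 15 markers, BMP6 raised 2 without LH and 8 with LH, beside 9.31% and 11.7% of all genes, and 0 had an unadjusted interaction p under 0.05. Their part in the inflammatory values was not tested. PTGS2, the inducible prostaglandin synthase, read 6.33 to 8.12 in control, 7.22 to 8.60 with LH, 9.13 to 10.24 with BMP6 and 9.19 to 10.71 with LH+BMP6, and its interaction was -0.03 ± 0.58. NOS2, the inducible nitric oxide synthase, had -0.20 ± 0.58. The highest interaction of the list was that of SAA3, 0.73 (unadjusted p = 0.0732 by limma). TNFAIP6, a hyaluronan-binding protein of the preovulatory follicle, had the lowest interaction of the list and was named after its values were seen. Its probe sets gave -0.95 ± 0.54 and -1.12 ± 0.49, with LH differences of 1.19 and 1.13 without BMP6 and 0.24 and 0.01 with it. In glycolysis and hypoxia genes, 26 measured, BMP6 raised 19 without and 19 with LH (9.31% and 11.7% of all genes), with medians of 0.56 and 0.60, and the median interaction was -0.06. VEGFA, the vascular growth factor, had -0.12 ± 0.42.

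Cell cycle genes had small interactions of mostly one sign. Of 30 measured, 26 were above 0, against 4796 of all 9155 genes, with a median of 0.10 and 0 unadjusted p values under 0.05. The median LH difference was -0.14 without and -0.02 with BMP6, and CCNB1, the mitotic cyclin, had the largest interaction, 0.39 ± 0.39. The median was -0.01 without LH replicate 1. Endothelial markers (10 measured) had a median of -0.13 and theca markers -0.40, or -0.17 without LH replicate 1. The theca markers fell with BMP6, 6 of 7 without LH and 7 of 7 with it, beside 15.5% of all genes in either state.

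The other lists had 0 calls and medians between -0.10 and 0.09. Those covered cyclic AMP machinery, the insulin and IGF system, contractile genes, proteases of the matrix, collagens, the Wnt pathway, retinoid handling, antioxidant enzymes, the unfolded protein response, interferon-stimulated genes, neuropeptides, and markers of granulosa cells, pericytes and fibroblasts, and red blood cells. Single members with an unadjusted p under 0.05 were STC1 and IGF1R in insulin and IGF genes, COL18A1 (0.50 ± 0.22, and 0.32 without LH replicate 1) in collagens, FZD4 (-0.53 ± 0.22) and LEF1 (-0.29 ± 0.13, and -0.19 without the 3 arrays of low hybridisation controls) in the Wnt pathway, and SCG2 and the dim NTS (0.20 ± 0.08) in neuropeptides. Over all genes, 1.35% had a positive and 1.53% a negative interaction at that threshold. LEF1, a partner of beta-catenin, was lower with LH+BMP6 (4.63 to 5.09) than with BMP6 (5.11 to 5.16) without overlap. Its control (4.75 to 4.94) and LH (4.81 to 4.89) arrays overlapped.

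**Figure D5:**
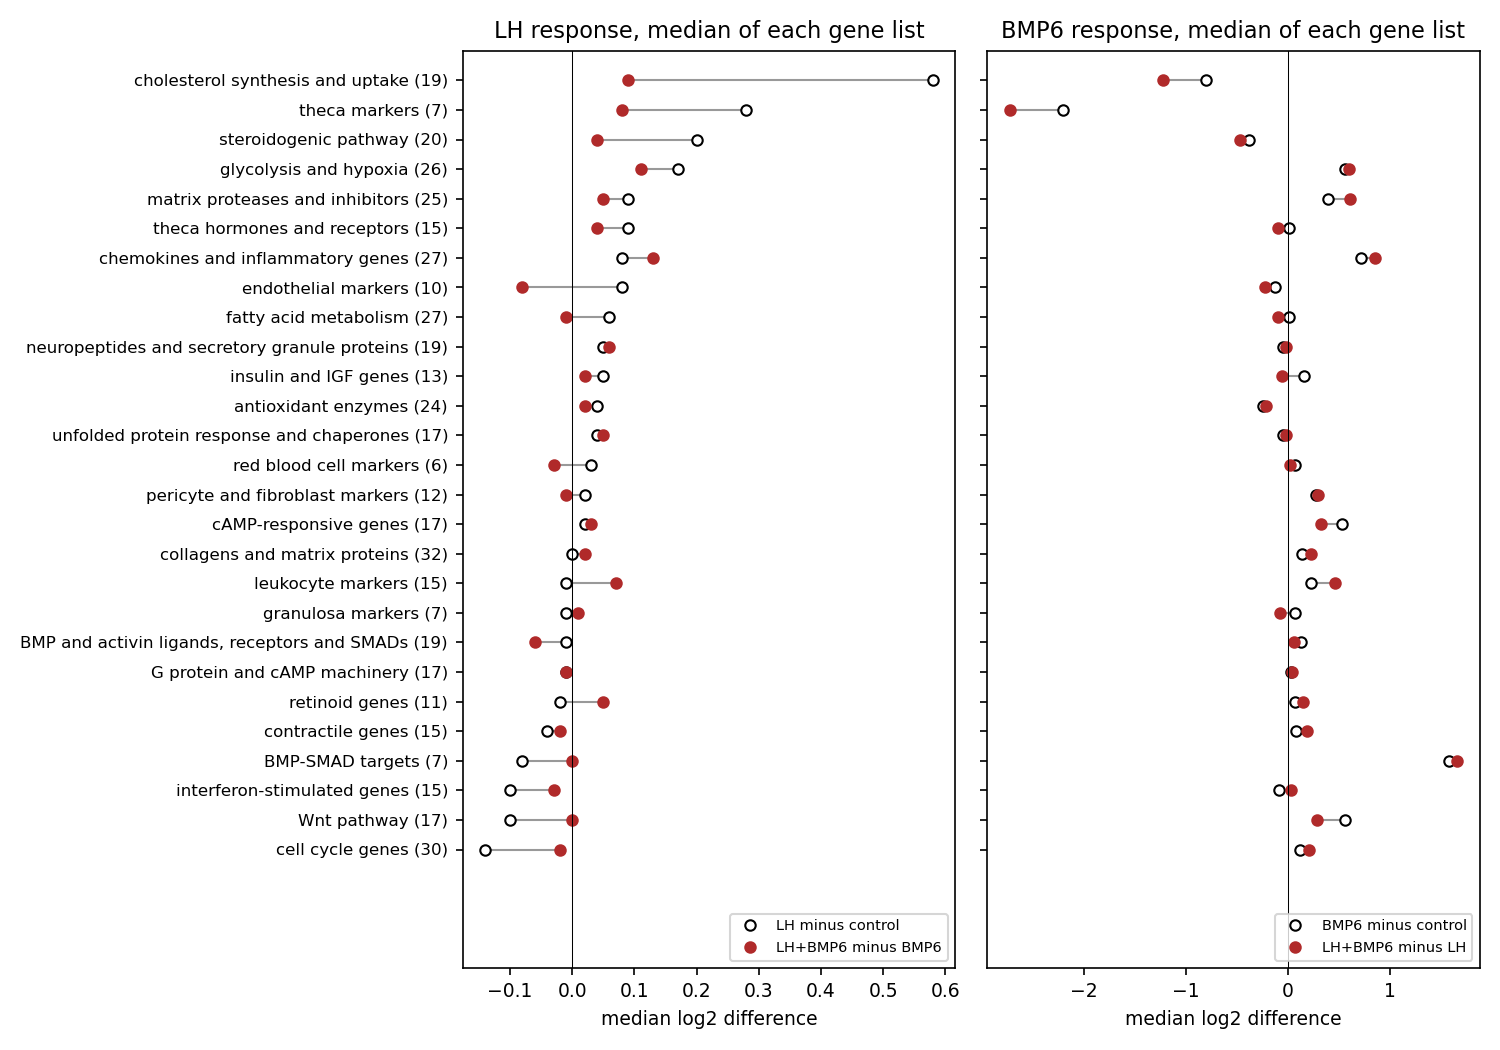
Median log2 difference of each gene list (number of measured genes in brackets). The left panel shows the LH difference without BMP6 (open) and with BMP6 (filled), and the right panel the BMP6 difference without LH (open) and with LH (filled). The distance between both points approximates the interaction. It is widest on the left for cholesterol synthesis and uptake (0.58 and 0.09), and on the right BMP-SMAD targets stand at 1.58 and 1.66.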

How the data were processed

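Signals were deposited on a log2 scale. The submitters' processing notes name RMA and Affymetrix Expression Console (version not given in the sources used here). Values were used as deposited, and 0 sample columns were left unused. Of 24128 probe sets, 112 control probe sets were set aside. The platform annotation gave 1 symbol to 13292 of the rest, several to 86 and none to 10638, and a gene is its probe set with the highest mean (9155 genes). limma 3.58.1 (R 4.3.3) fitted 1 coefficient per group over 16 arrays with a trended eBayes, and p values were adjusted by Benjamini-Hochberg over 24016 probe sets. Python 3.11.15 made lists and figures. The script was tested on simulated data.

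The labels describe separate ovary batches, so replicates are separate cultures. No block was used.

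Named genes were the 10 smallest p values in each direction (none being called), genes called for the average LH effect, the 8 largest rises and falls for BMP6, a fixed set, and up to 3 list members with an unadjusted p under 0.05. TCN2, TNFAIP6, the unnamed probe sets, and list members given as further examples were named after their values were seen. Members and lists were chosen with earlier results of these data known.

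Alternatives varied the block, eBayes, dim probe sets (under the 40th percentile), normalization, an offset of 32, the arrays used and a term for low hybridisation controls.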

Additional observations from a re-analysis of the deposited data

Results flagged for a closer look

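Among the 65 named genes, 10 of 260 groups of 4 arrays (3.85%) held an array far from the other 3 by Dixon's ratio at its 95% critical value, and chance alone marks about 1 in 20 groups. STAR in LH replicate 1 was 11.47, with the other LH arrays between 9.34 and 9.49. COL18A1 in the same array was 4.43, with the others at 5.11 to 5.18. Without LH replicate 1 the interaction of STAR was -0.96, against -1.47 with it.

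In BMP6 replicate 2, ID3 stood at 8.65 (others 9.13 to 9.22) and PTGS2 at 10.24 (others 9.13 to 9.26). LSS stood at 8.28 in BMP6 replicate 1 (others 7.54 to 7.61) and FRMD8 at 8.35 in BMP6 replicate 3 (others 8.17 to 8.19). SQLE stood at 9.98 in LH+BMP6 replicate 1 (others 9.12 to 9.23). ZFP36L2 stood at 11.44 in control replicate 1 (others at most 11.07) and at 10.59 in LH+BMP6 replicate 4 (others 10.67 to 10.68). TMEM35A stood at 5.36 in control replicate 2 (others 5.00 to 5.02).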

How the results depend on the processing

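The interaction had 0 calls under 20 ways of leaving out arrays and 11 other settings, with 378 to 1290 probe sets at an unadjusted p under 0.05. LH+BMP6 against BMP6 likewise had 0. Without the 3 arrays of low hybridisation controls, LH against control and the average LH effect had 0 calls and BMP6 against control 2660, and with low hybridisation controls as a term BMP6 against control had 2766. Leaving out arrays gave 0 to 6 calls for LH against control, 0 to 2 for the average LH effect, 2703 to 4590 for BMP6 against control, 2963 to 5210 for LH+BMP6 against LH and 5910 to 7487 for the average BMP6 effect. The call of SCG2 for the average LH effect was lost without control replicate 1, control replicate 3, LH replicate 4, LH+BMP6 replicate 1, all arrays numbered 1, or all numbered 3. None of 2021 alternative interaction values of the 65 named genes was called, and 48 genes kept their sign in all of them. With an offset of 32 LH against control had 2 calls, and the interactions of dim genes were smaller, at -0.12 for FEZ2, -0.20 for HP, 0.09 for IGSF5 and 0.04 for NTS. The 4 arrays per group and dim signals limit what can be seen.

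Arrays of the same replicate number deviated together at r above 0.1 in 14 of 24 pairs (-0.11 to 0.69). The mean r of same-number arrays was above 0 for every pair of groups, from 0.018 for control and LH+BMP6 to 0.38 for BMP6 and LH+BMP6. The labels do not say that the number marks the experiment, and the main fit used no block. Its SE and p values thus leave out any pairing by number. With a fixed replicate block the interaction had 0 calls and 1022 probe sets at an unadjusted p under 0.05, and with a random replicate block 0 and 989 (correlation 0.099). LH against control had 2 calls with the fixed replicate block and 3 with the random one. With low hybridisation controls as a term and the replicate block, a setting chosen after seeing the data, the interaction had 0 and 1290. LH against control had 3 calls there.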

Other observations

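Genes of matrix turnover, 25 measured, rose with BMP6 in 11 cases without LH and 12 with LH, and none fell (9.31% and 11.7% of all genes were called higher and 15.5% lower in either state). The examples were named after their values were seen. PLAT, the tissue plasminogen activator, differed by 1.55 without LH and 1.49 with it, with an interaction of -0.06 ± 0.29. ADAMTS4, an aggrecanase, differed by 1.45 and 1.46, with an interaction of 0.02 ± 0.37. ADAMTS1, a protease known from ovulating follicles, differed by 1.56 and 1.35, with -0.20 ± 0.26. PLAUR, the urokinase receptor, differed by 1.05 and 1.01, with -0.04 ± 0.25. MMP9, a gelatinase, had the highest interaction of the list, 0.39 ± 0.43, from differences of 0.23 and 0.61.

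In the 11 measured retinoid genes, BMP6 raised 4 and lowered 2 in each LH state. Of all genes, 9.31% were called higher without LH and 11.7% with it. The share lowered was near the 15.5% of all genes in either state. RDH10, which oxidises retinol, differed by 1.20 in both states, with an interaction of -0.00 ± 0.33. ALDH1A1, which makes retinoic acid, differed by -1.54 without LH and -1.88 with it, with -0.34 ± 0.27, the lowest of the list. DHRS3, which reduces retinal, differed by -1.41 and -1.48, with -0.08 ± 0.37.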
